A study of Mus musculus with 6 samples.

Results

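The 37 genes described here are immediate early genes and stress-response genes of the mouse, among them members of the FOS, JUN, EGR, NR4A, IER, KLF, DUSP and HSP70 families. They were taken by symbol from a deposited table of 54532 genes, and each matched 1 row. The unit is FPKM, the fragments of a gene divided by its length and by a size of the library. That size is not the fragment total alone, because a scaling between libraries is already in the deposited values. All 37 passed the filter on low values, which kept 10913 genes that reached 1 FPKM in at least 3 libraries of 6. The RNA came from CD11b-positive bone marrow cells, selected with magnetic beads from tibias of mice aged 12 weeks. CD11b is an integrin chain of neutrophils, monocytes and macrophages, and such cells include the precursors of osteoclasts. The libraries fall into 2 groups of 3: mice labelled Tshr-/-, mutant in both copies of the gene of the thyroid-stimulating hormone receptor, and Tshr+/+ mice, the wild type. Another label calls the mutants a knockdown and gives osteoclast differentiation as a treatment in both groups with no time, and no culture step is described. The labels state neither how the Tshr allele was made nor whether same-numbered mice shared a litter or a day. That the libraries of a group came from separate mice is read from the numbers in the titles.

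Immediate early genes are switched on within minutes of a signal, without new protein synthesis, because their transcription factors are already present in the cell. Serum response factor, CREB and NF-kB carry the signal of growth factors, calcium, cyclic AMP and microbial products to these genes. Many of the products are transcription factors (the FOS, JUN, EGR, NR4A and KLF families), and others, such as the phosphatase DUSP1, the RNA decay factor ZFP36 and the NF-kB inhibitor NFKBIA, shut the signal off again. Heat shock genes answer to misfolded proteins through HSF1. In myeloid cells both groups respond to cytokines and microbial products, and in isolated cells also to the handling of the tissue.

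The libraries held 14698126 to 17976477 fragments, of which the 37 genes took 1.84% to 2.18%. The target of the mutation was still read in mutant libraries: Tshr had 40, 25 and 1 fragments in the libraries labelled Tshr-/- 1, 2 and 3, and 55, 55 and 45 in Tshr+/+ 1, 2 and 3. The Tshr fragments of Tshr-/- 1 and 2 thus do not bear out their label, and they cannot tell whether these mice carried the mutation. Each direction between genotypes is that of the labels. Tshr-/- 1 stands for the library with that label and number, and so on, and where 3 values are given for a genotype they are those of libraries 1, 2 and 3 in that order. The values cover the whole Tshr gene, and the part that the mutation removes is not given in the labels. Itgam, the gene of CD11b, had 106, 134 and 87.4 FPKM in Tshr-/-, against 111, 125 and 114 FPKM in Tshr+/+. Cells of other types cannot be told apart from the selected ones in such bulk RNA, and fewer cells of a type and less RNA per cell give the same reading.

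None of the 37 genes passed the test between the genotypes, while many of them separated the libraries numbered 3 from the other 4. In 19 of the 37 genes (51.4%) both libraries numbered 3, Tshr-/- 3 and Tshr+/+ 3, lay below the other 4 libraries, against 19.7% of all tested genes. In 2 genes, Fos and Dusp1, both lay above, against 17.0% of all tested genes. Without the libraries labelled Tshr-/- 1 and 2, the counts were 21 below and 4 above, against 32.6% and 30.5% of all tested genes. Rescaled to equal FPKM totals, the count was 9 below and 6 above, against 7.33% and 38.7% of all tested genes. With quantile normalization it was 14 below and 3 above, against 15.7% and 21.6%. The 9 genes below under each of these scalings were Fosl2, Maff, Nr4a3, Klf10, Btg1, Gadd45b, Nfkbia, Nfkbiz and Rhob, and Fos and Dusp1 were above under each. The counts below and above are descriptions without a test, and the number 3 was singled out after the values were seen. For the number 2, 9 genes had both libraries above and 2 below the other 4, against 7.88% and 8.51% of all tested genes. For the number 1 it was 1 above and 3 below, against 5.49% and 5.03%.

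**Figure D1:**
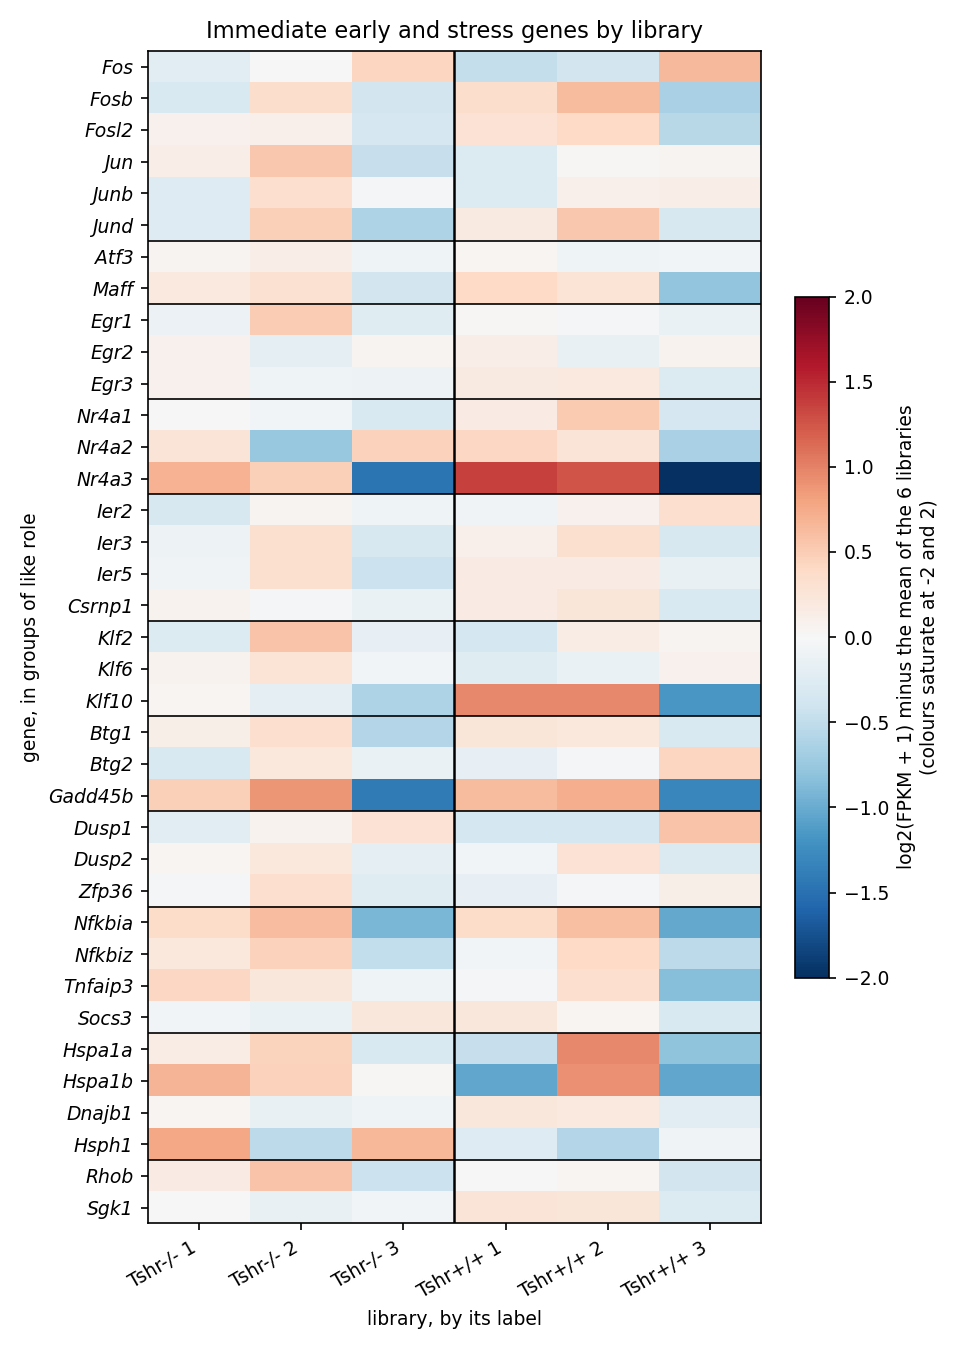
Each row is 1 of the 37 genes, ordered by role, and each column a library; colour gives log2(FPKM + 1) minus the mean of that gene over the 6 libraries. Both columns numbered 3 are blue for most rows, darkest for Nr4a3, Gadd45b and Nfkbia, while Fos and Dusp1 are red there; after rescaling to equal FPKM totals 9 genes had both libraries numbered 3 below the other 4.

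Between the genotypes, limma called 0 of the 37 genes at an adjusted p under 0.05, where 0% of all 10913 tested genes were called (0 higher and 0 lower). The adjusted p, taken over all tested genes, was 0.9997 for each of the 37. At an unadjusted p under 0.05 stood 0 of the 37 and 317 of all tested genes, or 2.90%. In 0 of the 37 did the 3 values of Tshr-/- lie wholly above or below the 3 values of Tshr+/+, against 6.77% of all tested genes. The log2 fold change, Tshr-/- over Tshr+/+ on the log2(FPKM + 1) scale, was above 0 for 19 and below 0 for 18 of the 37, with a median of 0.03, beside -0.01 over all tested genes. This split leans on single libraries: with each left out in turn, 11 (without Tshr-/- 2) to 25 (without Tshr+/+ 2) were above 0, and 9 without the libraries labelled Tshr-/- 1 and 2. The block by replicate number left the call at 0 of 37, with a smallest adjusted p of 0.820.

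**Figure D2:**
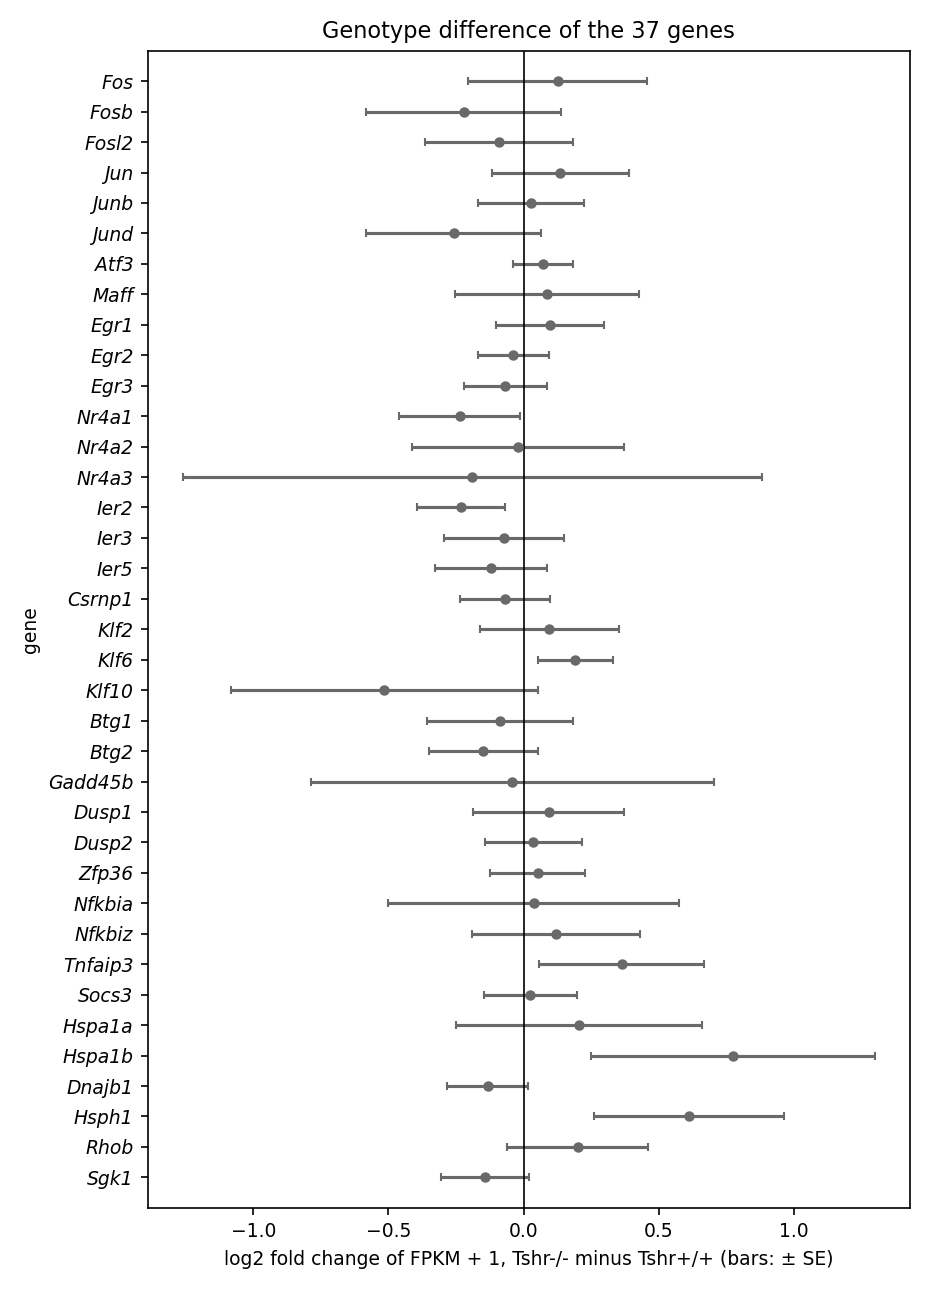
Points give the log2 fold change of FPKM + 1, Tshr-/- minus Tshr+/+, of each of the 37 genes, and bars the standard error of the limma fit to 3 libraries a group. The points lie between -0.51 for Klf10 and 0.78 for Hspa1b, and none passed the test.

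Fos and Dusp1 were high in the libraries numbered 3 and Nr4a1, Nr4a3 and Gadd45b low, and their promoters are shown for that contrast. Nr4a1 left that order with equal FPKM totals and with quantile normalization. The promoter of Junb is shown as that of an abundant gene without either order. RefSeq promoters on GRCm38.p6 matched 32 of the 37 genes, all but Ier2, Egr1, Egr3, Nfkbiz and Klf10, and the 250 bases before the start were searched on both strands. The 6 motifs were the cyclic AMP response element TGACGTCA, its first bases TGACG (which the full element contains), the AP-1 site TGANTCA, the heat shock element, the CArG box of serum response factor and the NF-kB site. Capitals mark matches. The windows lie at chr12:85473640-85473889 on the plus strand for Fos, chr8:84978749-84978998 on the minus strand for Junb, chr17:26508473-26508722 on the minus strand for Dusp1, chr15:101266596-101266845 on the plus strand for Nr4a1, chr4:48045055-48045304 on the plus strand for Nr4a3 and chr10:80929841-80930090 on the plus strand for Gadd45b.
Fos: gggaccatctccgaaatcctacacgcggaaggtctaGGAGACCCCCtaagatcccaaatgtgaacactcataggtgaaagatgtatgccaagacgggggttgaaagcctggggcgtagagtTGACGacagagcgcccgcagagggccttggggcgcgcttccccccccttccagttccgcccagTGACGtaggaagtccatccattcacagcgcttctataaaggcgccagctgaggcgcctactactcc
Junb: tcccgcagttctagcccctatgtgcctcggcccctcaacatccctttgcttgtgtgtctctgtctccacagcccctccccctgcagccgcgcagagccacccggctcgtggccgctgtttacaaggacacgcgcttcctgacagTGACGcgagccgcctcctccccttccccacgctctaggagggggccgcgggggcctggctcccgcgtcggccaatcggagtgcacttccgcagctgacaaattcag
Dusp1: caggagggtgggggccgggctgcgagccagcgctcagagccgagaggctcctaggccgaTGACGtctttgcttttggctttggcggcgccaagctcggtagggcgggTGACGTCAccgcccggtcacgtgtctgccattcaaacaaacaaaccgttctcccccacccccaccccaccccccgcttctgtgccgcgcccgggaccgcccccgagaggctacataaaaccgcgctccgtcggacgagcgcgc
Nr4a1: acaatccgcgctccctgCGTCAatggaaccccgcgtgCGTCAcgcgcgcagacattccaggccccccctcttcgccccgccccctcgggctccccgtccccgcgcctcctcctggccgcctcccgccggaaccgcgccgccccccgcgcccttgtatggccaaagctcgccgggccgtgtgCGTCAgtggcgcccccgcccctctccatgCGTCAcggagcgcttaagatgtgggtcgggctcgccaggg
Nr4a3: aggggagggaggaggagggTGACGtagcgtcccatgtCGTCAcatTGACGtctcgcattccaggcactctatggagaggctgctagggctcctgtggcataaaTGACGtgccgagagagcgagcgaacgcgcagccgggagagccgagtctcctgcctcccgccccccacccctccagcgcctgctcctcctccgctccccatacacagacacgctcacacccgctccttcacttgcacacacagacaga
Gadd45b: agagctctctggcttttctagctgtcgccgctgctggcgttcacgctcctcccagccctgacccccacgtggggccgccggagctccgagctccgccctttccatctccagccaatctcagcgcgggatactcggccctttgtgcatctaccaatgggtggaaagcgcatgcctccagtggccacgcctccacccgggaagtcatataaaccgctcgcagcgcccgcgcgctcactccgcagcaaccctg

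The RefSeq starts differ in part from those of the deposited annotation: the window of Nr4a1 lies inside the annotated gene, those of Dusp1, Nr4a3 and Gadd45b run into it at their ends, and that of Junb ends upstream of it. The Fos window held TGACG at 2 places and an NF-kB match 205 to 214 bases before the start. The Dusp1 window held TGACGTCA from 143 to 136 bases before the start and another TGACG. The Junb window held TGACG at 1 place. The Nr4a1 and Nr4a3 windows each held TGACG at 4 places, of which 1 in Nr4a3 lies inside the annotated gene, and the Gadd45b window held none of the 6 motifs. TGACG was present in 17 of the 32 genes (53.1%) and in 19.8% of 27025 genes with a promoter. A gene was counted if any of its promoters held the motif, so more sequence was searched for genes with several promoters. The part of this in the shares was not tested. The full element was present in 3 of 32 (Maff, Btg2 and Dusp1), against 1.77%. The NF-kB site was present in 7 of 32, among them Nfkbia, Tnfaip3, Ier3 and Maff, against 4.46%. The AP-1 site was present in 2 of 32 (Csrnp1 and Tnfaip3), against 7.82%, the CArG box in 2 of 32 (Egr2 and Zfp36), against 1.62%, and the exact heat shock pattern in 0 of 32, against 0.514%. Imperfect heat shock elements were not searched, so the 0 does not mean that Hspa1a and Hspa1b lack a site for HSF1. The windows of the 32 genes were richer in G and C, with a median of 64.8% against 52.4% over all genes, and the part of base composition in these shares was not tested. Of the genes with TGACG, Fos and Dusp1 were high and Nr4a3 low in the libraries numbered 3, as was Nr4a1 without rescaling. Genes with a match were thus found in both orders.

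The FOS and JUN proteins pair to form the transcription factor AP-1. Fos (ENSMUSG00000021250, chromosome 12, 85473890 to 85477273 of GRCm38, plus strand) was the most abundant of the 37 genes, with 583, 684 and 923 FPKM in Tshr-/- 1, 2 and 3, against 492, 531 and 1080.2 FPKM in Tshr+/+ 1, 2 and 3. The highest value of each genotype was that of the library numbered 3, and the genotypes overlapped, at 729.9 ± 175 FPKM in Tshr-/-, against 701 ± 329 FPKM in Tshr+/+ (SD, n = 3 each) and a log2 fold change of 0.13 ± 0.33 (SE). Fosb, a partner of JUN like Fos, went the other way, with 201, 317 and 193 FPKM in Tshr-/-, against 317, 389 and 158 FPKM in Tshr+/+. Tshr-/- 3 and Tshr+/+ 3 were here the lowest libraries of their genotypes and of all 6. Fosl2, another FOS family gene, was lowest in the libraries numbered 3 as well, with 121, 123 and 89.9 FPKM in Tshr-/-, against 139, 150.2 and 76.7 FPKM in Tshr+/+.

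Among the JUN genes, Junb (ENSMUSG00000052837, chromosome 8, 84974484 to 84978718 of GRCm38, minus strand) was second in abundance among the 37 genes, with 587, 879 and 681 FPKM in Tshr-/- 1, 2 and 3, against 576, 753 and 764 FPKM in Tshr+/+ 1, 2 and 3. It had no common order by number: Tshr-/- 2 was the highest and Tshr+/+ 1 the lowest library, and the log2 fold change was 0.03 ± 0.20 (SE). Jun, the founding member, had 174, 229 and 114 FPKM in Tshr-/-, against 130.0, 161 and 164 FPKM in Tshr+/+, and the library labelled Tshr-/- 3 was the lowest, followed by Tshr+/+ 1. Jund, the JUN gene that is made steadily in many cells, had 108, 179.8 and 84.1 FPKM in Tshr-/-, against 146, 188 and 103 FPKM in Tshr+/+, lowest in both libraries numbered 3. Of the 6 AP-1 genes, 3 had both libraries numbered 3 below the others and 1 above, against 19.7% and 17.0% of all tested genes. With equal FPKM totals Fosl2 alone of these 3 stayed below. The genotype fold changes of the 6 were above 0 for 3 and below 0 for 3 (median -0.03). Jun overlaps its antisense gene Junos, and Junb overlaps Prdx2 on the opposite strand. No source used here says whether strand was used in counting, so fragments of these pairs cannot be told apart.

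Atf3 and Maff encode smaller basic leucine zipper proteins, of which ATF3 represses many inflammatory genes and MAFF lacks an activation domain. Atf3 was the steadiest of the 37, with 157, 166 and 142 FPKM in Tshr-/- 1, 2 and 3, against 154, 142 and 144 FPKM in Tshr+/+ 1, 2 and 3. Its highest library was 1.17 times its lowest, and its log2 fold change was 0.07 ± 0.11 (SE). Maff had 17.8, 19.2 and 11.7 FPKM in Tshr-/-, against 20.5, 18.8 and 8.46 FPKM in Tshr+/+, with the lowest value of each genotype in the library numbered 3.

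The EGR genes encode zinc finger factors that bind GC-rich sites, and Egr1 is a common readout of ERK signalling. Egr1 had 58.5, 90.5 and 53.6 FPKM in Tshr-/-, against 64.8, 61.8 and 57.7 FPKM in Tshr+/+. The library labelled Tshr-/- 2 stood above the other 5, and the libraries numbered 3 were the lowest by a small margin. Egr2 ranged from 4.34 to 5.70 FPKM and Egr3 from 4.54 to 6.62 FPKM, both far under Egr1 in FPKM. Their log2 fold changes were -0.04 ± 0.13 (SE) for Egr2, -0.07 ± 0.15 (SE) for Egr3 and 0.10 ± 0.20 (SE) for Egr1.

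The NR4A genes encode nuclear receptors that need no ligand, and Nr4a1 is also required by patrolling monocytes. Nr4a3 (ENSMUSG00000028341, chromosome 4, 48045153 to 48086447 of GRCm38, plus strand) differed most between libraries of all 37 genes. Its promoter, like that of Nr4a1, holds TGACG at 4 places. It had 20.4, 17.3 and 3.76 FPKM in Tshr-/- 1, 2 and 3, against 33.0, 30.4 and 1.60 FPKM in Tshr+/+ 1, 2 and 3. Tshr+/+ 3 and the library labelled Tshr-/- 3 lay far below the other 4, and the highest library was 20.6 times the lowest. On the log2(FPKM + 1) scale the library numbered 3 lay -2.06 from the mean of the other 2 in Tshr-/- and -3.65 in Tshr+/+. The genotype means were 13.8 ± 8.86 FPKM in Tshr-/-, against 21.7 ± 17.4 FPKM in Tshr+/+ (SD, n = 3 each), a log2 fold change of -0.19 ± 1.07 (SE) that is small beside its error. Nr4a1, the abundant member, had 339.7, 326 and 276 FPKM in Tshr-/-, against 379.7, 488 and 270.1 FPKM in Tshr+/+ and was also lowest in both libraries numbered 3. Nr4a2 split these 2 libraries: with 25.8, 12.3 and 29.8 FPKM in Tshr-/-, against 29.0, 25.8 and 13.3 FPKM in Tshr+/+, its highest value was that of Tshr-/- 3, while Tshr+/+ 3 was low beside the other Tshr+/+ libraries.

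**Figure D3:**
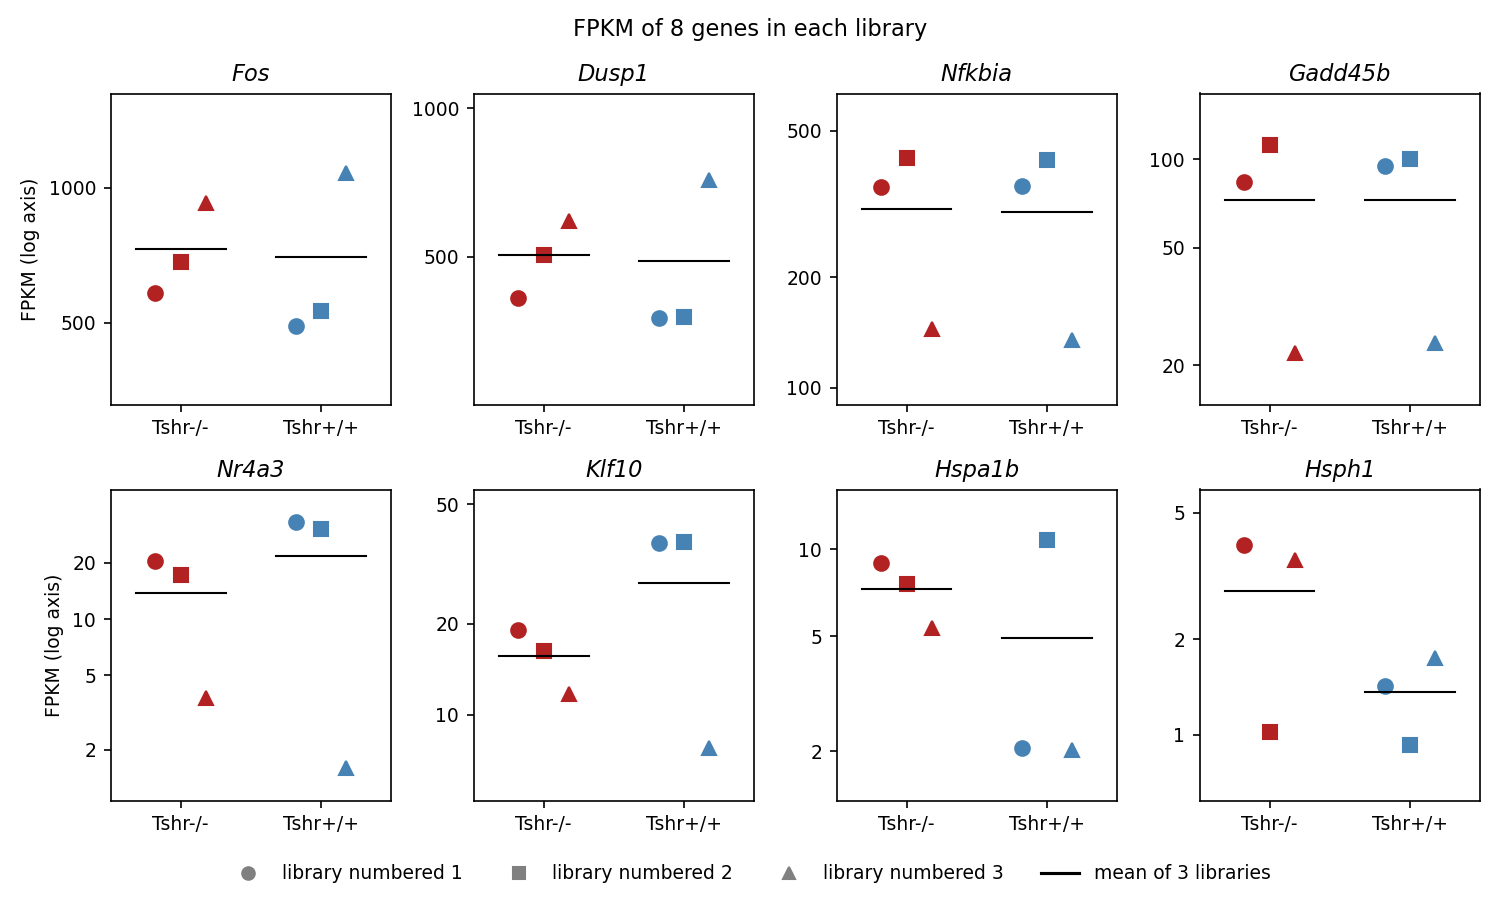
FPKM on a log axis of 8 of the genes; symbols give the replicate number of the library, colours the genotype label, and lines the mean of 3 libraries. Triangles, the libraries numbered 3, are the highest points of their genotype for Fos and Dusp1 and the lowest for Nfkbia, Gadd45b, Nr4a3 and Klf10, while the genotypes overlap in all 8 panels.

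Ier2, Ier3, Ier5 and Csrnp1 encode nuclear or membrane proteins made early after growth factors and stress, of which IER5 assists HSF1 and IER3 bears on cell survival. Ier2 had 301, 392 and 354 FPKM in Tshr-/- 1, 2 and 3, against 357, 397 and 478 FPKM in Tshr+/+ 1, 2 and 3. Its highest library was Tshr+/+ 3 and its lowest the library labelled Tshr-/- 1, with means of 349 ± 45.4 FPKM in Tshr-/-, against 411 ± 61.4 FPKM in Tshr+/+ (SD, n = 3 each) and a log2 fold change of -0.23 ± 0.16 (SE). Ier3, Ier5 and Csrnp1 were each lowest in both libraries numbered 3. Csrnp1, the most abundant of these after Ier2, had 138, 127 and 119 FPKM in Tshr-/-, against 146, 155 and 106 FPKM in Tshr+/+. It overlaps the chemokine receptor gene Cx3cr1 on the same strand in the annotation, and Cx3cr1 had 2.68, 3.40 and 4.03 FPKM in Tshr-/-, against 3.48, 3.58 and 7.42 FPKM in Tshr+/+. All 4 genes had a log2 fold change below 0, from -0.23 for Ier2 to -0.07 for Csrnp1, and none passed.

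The KLF genes encode zinc finger factors: KLF2 restrains inflammatory activation of myeloid and endothelial cells, and KLF10 answers to TGF-beta. Klf2 was abundant, with 389, 701 and 419 FPKM in Tshr-/- 1, 2 and 3, against 368, 521 and 489 FPKM in Tshr+/+ 1, 2 and 3. The library labelled Tshr-/- 2 stood highest, and the other 5 lay within 368 to 521 FPKM. Klf6, a gene of activated macrophages, had 143, 165 and 132 FPKM in Tshr-/-, against 115, 125 and 145 FPKM in Tshr+/+ and a log2 fold change of 0.19 ± 0.14 (SE), and its groups overlapped. Klf10 had 19.1, 16.2 and 11.7 FPKM in Tshr-/-, against 37.3, 37.3 and 7.76 FPKM in Tshr+/+. Tshr+/+ 1 and 2 stood above all Tshr-/- libraries while Tshr+/+ 3 stood below them, so that the log2 fold change was -0.51 ± 0.57 (SE).

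BTG1 and BTG2 slow cell division and promote mRNA decay, and GADD45B is a stress sensor that acts on MAP kinase signalling. Gadd45b (ENSMUSG00000015312, chromosome 10, 80930073 to 80932204 of GRCm38, plus strand) had 84.0, 111 and 22.0 FPKM in Tshr-/- 1, 2 and 3, against 94.4, 100.4 and 23.7 FPKM in Tshr+/+ 1, 2 and 3. The libraries numbered 3 were far lower than the others in both genotypes, in a gene whose promoter held none of the 6 motifs. On the log2(FPKM + 1) scale their distance from the mean of the other 2 was -2.09 in Tshr-/- and -1.99 in Tshr+/+. The genotype means were close, at 72.5 ± 45.8 FPKM in Tshr-/-, against 72.9 ± 42.6 FPKM in Tshr+/+ (SD, n = 3 each). Btg1 was lowest in the libraries numbered 3 too, with 339, 393 and 208 FPKM in Tshr-/-, against 368, 359 and 251 FPKM in Tshr+/+. Btg2, with 137, 195 and 152 FPKM in Tshr-/-, against 150.2, 164 and 226 FPKM in Tshr+/+, was highest in Tshr+/+ 3 but not in the library labelled Tshr-/- 3.

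The products of Dusp1, Dusp2 and Zfp36 end the early response: DUSP1 and DUSP2 remove phosphate from MAP kinases in the nucleus, and ZFP36 directs mRNAs with AU-rich elements to decay. Dusp1 (ENSMUSG00000024190, chromosome 17, 26505590 to 26508519 of GRCm38, minus strand) had 413, 504 and 592 FPKM in Tshr-/- 1, 2 and 3, against 376, 378 and 714 FPKM in Tshr+/+ 1, 2 and 3. As for Fos, whose promoter also holds TGACG, the library numbered 3 was the highest of each genotype and both lay above the other 4. On the log2(FPKM + 1) scale it was 0.38 above the mean of the other 2 in Tshr-/- and 0.92 above in Tshr+/+, where Fos was 0.55 and 1.08 above. Zfp36 had 393, 505 and 337 FPKM in Tshr-/-, against 356, 391 and 432 FPKM in Tshr+/+, with no common order by number. Dusp2, at 13.9 to 21.1 FPKM, was lowest in both libraries numbered 3. The log2 fold changes between genotypes were 0.09 ± 0.28 (SE) for Dusp1, 0.05 ± 0.18 (SE) for Zfp36 and 0.04 ± 0.18 (SE) for Dusp2.

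Nfkbia, Nfkbiz and Tnfaip3 are targets and regulators of NF-kB, and Socs3 restrains signalling by cytokines that use STAT3. Nfkbia (ENSMUSG00000021025, chromosome 12, 55489410 to 55492647 of GRCm38, minus strand) had 353, 421 and 144 FPKM in Tshr-/- 1, 2 and 3, against 353, 416 and 135 FPKM in Tshr+/+ 1, 2 and 3. The 2 libraries numbered 3 were far lower than any other, and same-numbered libraries of the 2 genotypes were close to each other. The genotype means were 306 ± 144 FPKM in Tshr-/-, against 301 ± 148 FPKM in Tshr+/+ (SD, n = 3 each), a log2 fold change of 0.04 ± 0.54 (SE). Nfkbiz, an activator of secondary NF-kB targets in macrophages, had 168, 201 and 103 FPKM in Tshr-/-, against 139.7, 192 and 101 FPKM in Tshr+/+, and its libraries numbered 3 were again the lowest. Tnfaip3, the ubiquitin-editing inhibitor A20, had 86.3, 76.1 and 60.9 FPKM in Tshr-/-, against 63.2, 82.5 and 35.5 FPKM in Tshr+/+. Its lowest library was Tshr+/+ 3, the groups overlapped, and the log2 fold change was 0.36 ± 0.30 (SE). Socs3 did not share the order: with 35.9, 33.6 and 43.6 FPKM in Tshr-/-, against 43.8, 38.3 and 29.7 FPKM in Tshr+/+, Tshr-/- 3 was the highest library of its genotype and Tshr+/+ 3 the lowest of all.

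Hspa1a and Hspa1b encode the inducible HSP70, Dnajb1 its co-chaperone, and Hsph1 a nucleotide exchange factor of HSP70. Hspa1a, Hspa1b and Hsph1 were among the 5 genes of the 37 with a mean under 10 FPKM, and 0 of the 4 heat shock genes had both libraries numbered 3 below or above the other 4. Hspa1b had 8.96, 7.58 and 5.36 FPKM in Tshr-/- 1, 2 and 3, against 2.05, 10.7 and 2.03 FPKM in Tshr+/+ 1, 2 and 3. Hspa1a had 5.41, 6.85 and 3.68 FPKM in Tshr-/-, against 3.18, 10.2 and 2.28 FPKM in Tshr+/+. Tshr+/+ 2 was the highest library for both genes, Tshr+/+ 1 and 3 were low for both, and the 3 Tshr-/- libraries lay between. Hspa1b had the largest log2 fold change of the 37, 0.78 ± 0.53 (SE), and Hspa1a had 0.20 ± 0.46 (SE). Without Tshr+/+ 2, both stood at an unadjusted p under 0.05, at a smallest adjusted p of 0.524 among the 37 genes.

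The 2 genes are near copies, so fragments can be assigned to either. Their coding sequences were identical at 1915 of 1923 aligned bases (99.6%), and the 250 bases before their starts at 247 of 250. Added together they had 14.4, 14.4 and 9.04 FPKM in Tshr-/- 1, 2 and 3, and 5.24, 21.0 and 4.30 FPKM in Tshr+/+ 1, 2 and 3, with Tshr+/+ 2 again the highest and Tshr+/+ 1 and 3 the lowest. The promoters are shown to make the likeness visible, with capitals at the bases where they differ. They come from RefSeq on GRCm38.p6 and lie at chr17:34972157-34972406 on the minus strand for Hspa1a and chr17:34959239-34959488 on the minus strand for Hspa1b.
Hspa1a: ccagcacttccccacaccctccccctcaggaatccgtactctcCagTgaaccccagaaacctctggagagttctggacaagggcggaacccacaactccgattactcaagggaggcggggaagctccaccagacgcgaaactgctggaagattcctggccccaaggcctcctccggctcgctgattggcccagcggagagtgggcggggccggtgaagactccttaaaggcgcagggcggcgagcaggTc
Hspa1b: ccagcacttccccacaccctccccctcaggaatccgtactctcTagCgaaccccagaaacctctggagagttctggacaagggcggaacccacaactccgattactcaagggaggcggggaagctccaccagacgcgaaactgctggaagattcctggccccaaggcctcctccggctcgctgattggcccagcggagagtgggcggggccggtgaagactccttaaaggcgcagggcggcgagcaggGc

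Dnajb1 had 37.7, 33.2 and 34.5 FPKM in Tshr-/-, against 43.3, 42.4 and 31.1 FPKM in Tshr+/+, with Tshr+/+ 1 and 2 above the other 4 libraries. Hsph1 had 3.95, 1.02 and 3.56 FPKM in Tshr-/-, against 1.42, 0.930 and 1.74 FPKM in Tshr+/+ and had the smallest unadjusted p of the 37 genes, 0.127, at a log2 fold change of 0.61 ± 0.35 (SE). The libraries labelled Tshr-/- 1 and 3 stood above all others, and Tshr-/- 2 lay among the Tshr+/+ values. With the replicate number as a block its unadjusted p was 0.0309 and its adjusted p 0.820.

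Rhob encodes a short-lived small GTPase of endosomes and Sgk1 a kinase induced by serum and glucocorticoids. Rhob had 206, 274 and 136 FPKM in Tshr-/-, against 186, 190.2 and 143 FPKM in Tshr+/+, lowest in both libraries numbered 3 and highest in the library labelled Tshr-/- 2. Sgk1 had 26.8, 24.3 and 26.1 FPKM in Tshr-/-, against 32.4, 32.2 and 22.1 FPKM in Tshr+/+. Tshr+/+ 1 and 2 were the highest libraries and Tshr+/+ 3 the lowest, while the Tshr-/- libraries were close together.

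Part of the spread between libraries ran along these genes, to an extent that changed with the processing. The mean log2(FPKM + 1) of the 37 genes, set against the mean of Tshr+/+, was 0.08, 0.21 and -0.23 in Tshr-/- 1, 2 and 3, and 0.08, 0.26 and -0.34 in Tshr+/+ 1, 2 and 3. With equal FPKM totals the level of Tshr-/- 3 was 0.031. The summed FPKM of the 37 genes was 5884, 7491 and 5675 in Tshr-/- 1, 2 and 3, and 5950, 6830 and 6398 in Tshr+/+ 1, 2 and 3. By this sum, which the most abundant genes dominate, Tshr+/+ 3 lay above both libraries numbered 1. Of the sum of squares of the 10876 other tested genes around their means, 42.4% lay along the profile of the 6 mean levels. An average direction takes 20%, and the first principal component, the largest share any direction can take, 46.5%. Around the genotype means the share was 51.8%, where an average direction takes 25% and the first component 54.2%. The first component of the other genes in turn took 69.6% of the spread of the 37 genes. The 42.4% became 31.0% with equal FPKM totals, 37.8% with quantile normalization and 35.8% with a pseudocount of 0.1. It became 48.0% with a pseudocount of 5 and 51.2% over genes with a mean of at least 5 FPKM. The shares describe these 6 libraries and carry no test.

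Split by the labels, the spread of the 37 genes fell to the replicate number far more than to the genotype. Replicate number, which has 2 of the 5 directions and so 40% on average, took 78.3% of the spread of the 37 genes and 56.1% of that of the other genes. Genotype, with 1 direction, took 6.15% of the spread of the 37 genes and 17.0% of that of the others. Without both libraries numbered 3, the share of the other genes along the profile of the 37 was 25.3%, below the 33.3% that an average direction of 4 libraries takes. The 37 genes varied more than most: the median ratio of the highest to the lowest library was 1.90 on the FPKM + 1 scale, beside 1.40 over all tested genes. This scale understates the ratio of low genes, and 20 of the 37 had a mean of at least 100 FPKM. The part of abundance in the contrast was not tested.

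**Figure D4:**
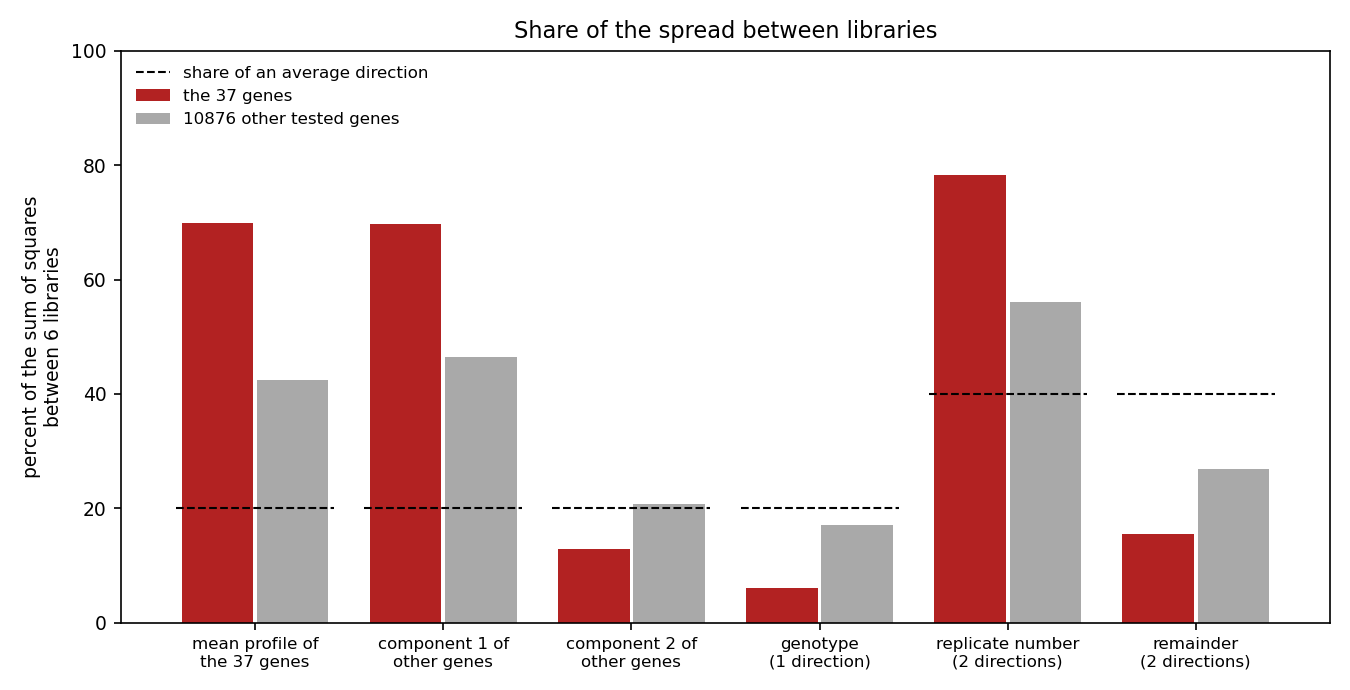
Bars give the percent of the sum of squares between 6 libraries that lies along each direction, for the 37 genes and for the 10876 other tested genes, and dashed lines the share of an average direction. The mean profile of the 37 genes takes 42.4% of the spread of the other genes, close to the 46.5% of their first component, and genotype takes 6.15% of the spread of the 37 genes. With equal FPKM totals the mean profile took 31.0% of the spread of the other genes.

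Other early response genes, listed by what they are known for, often had their lowest values in the libraries numbered 3 too. Of 45 listed, 40 were tested, and 0 were called higher and 0 lower between the genotypes (median log2 fold change -0.03). In 23 of the 40 both libraries numbered 3 lay below the other 4, beside 19.7% of all tested genes. In 3 (Ptgs2, Zfp36l2 and Cited2) both lay above, beside 17.0%. These counts are without rescaling to equal FPKM totals, where the shares over all tested genes were 7.33% and 38.7%. Cebpb, a factor of myeloid differentiation and the most abundant of the list, had 956, 1296 and 673 FPKM in Tshr-/-, against 1174, 1339.9 and 792 FPKM in Tshr+/+. Ppp1r15a, which reverses the translation block of the stress response, had 41.4 ± 1.26 FPKM in Tshr-/-, against 34.4 ± 4.03 FPKM in Tshr+/+ (SD, n = 3 each), a log2 fold change of 0.27 ± 0.11 (SE) and the smallest p of the list. It was the 1 gene of 40 in which all Tshr-/- values lay above all Tshr+/+ values, with none the other way, beside 6.77% of all tested genes, and its adjusted p was 0.9997. Bcl3, an atypical NF-kB inhibitor, had 19.8, 21.2 and 17.5 FPKM in Tshr-/-, against 19.8, 28.7 and 25.6 FPKM in Tshr+/+.

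For the chaperone and upstream lists the counts with both libraries numbered 3 below were nearer to the share over all tested genes. Over 17 tested heat shock genes outside the 37, 12 had a log2 fold change above 0 and 5 below, with a median of 0.07 and 0 called. In 4 of them both libraries numbered 3 lay below the others and in 1 above, against 19.7% and 17.0% of all tested genes. Hsp90ab1, the constitutive HSP90, had 247, 191 and 239 FPKM in Tshr-/-, against 203, 206 and 203 FPKM in Tshr+/+. Chordc1, an HSP90 partner, had 3.95, 3.16 and 3.98 FPKM in Tshr-/-, against 2.54, 2.33 and 3.96 FPKM in Tshr+/+, with both libraries numbered 3 above the others.

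Of 28 tested kinases and transcription factors that act upstream of the early genes, 8 had both libraries numbered 3 below the other 4 and 7 above. The shares of all tested genes were 19.7% and 17.0%. Between the genotypes 0 of the 28 were called, with a median log2 fold change of -0.02. Their mean level lay between -0.07 and 0.05 in every library. Mapkapk2, the kinase downstream of p38, had 193, 199 and 142 FPKM in Tshr-/-, against 204, 216 and 130.5 FPKM in Tshr+/+ and was lowest in both libraries numbered 3. Creb1, which binds the cyclic AMP response element, had 5.02, 4.75 and 5.51 FPKM in Tshr-/-, against 3.03, 3.37 and 5.94 FPKM in Tshr+/+, and Rps6ka3, a kinase of CREB, had 7.47 to 10.8 FPKM. Both were highest in the libraries numbered 3. Of 7 glucocorticoid response genes, which include Dusp1 and Sgk1 of the 37, 0 were called and the median was 0.05. Fkbp5, a chaperone of the glucocorticoid receptor, had 15.4, 8.33 and 25.8 FPKM in Tshr-/-, against 14.8, 5.50 and 8.16 FPKM in Tshr+/+, so that Tshr-/- 3 and Tshr+/+ 3 stood far apart. Klf9, another target of the receptor, had 9.28, 5.29 and 9.28 FPKM in Tshr-/-, against 6.96, 6.51 and 3.60 FPKM in Tshr+/+.

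**Figure D5:**
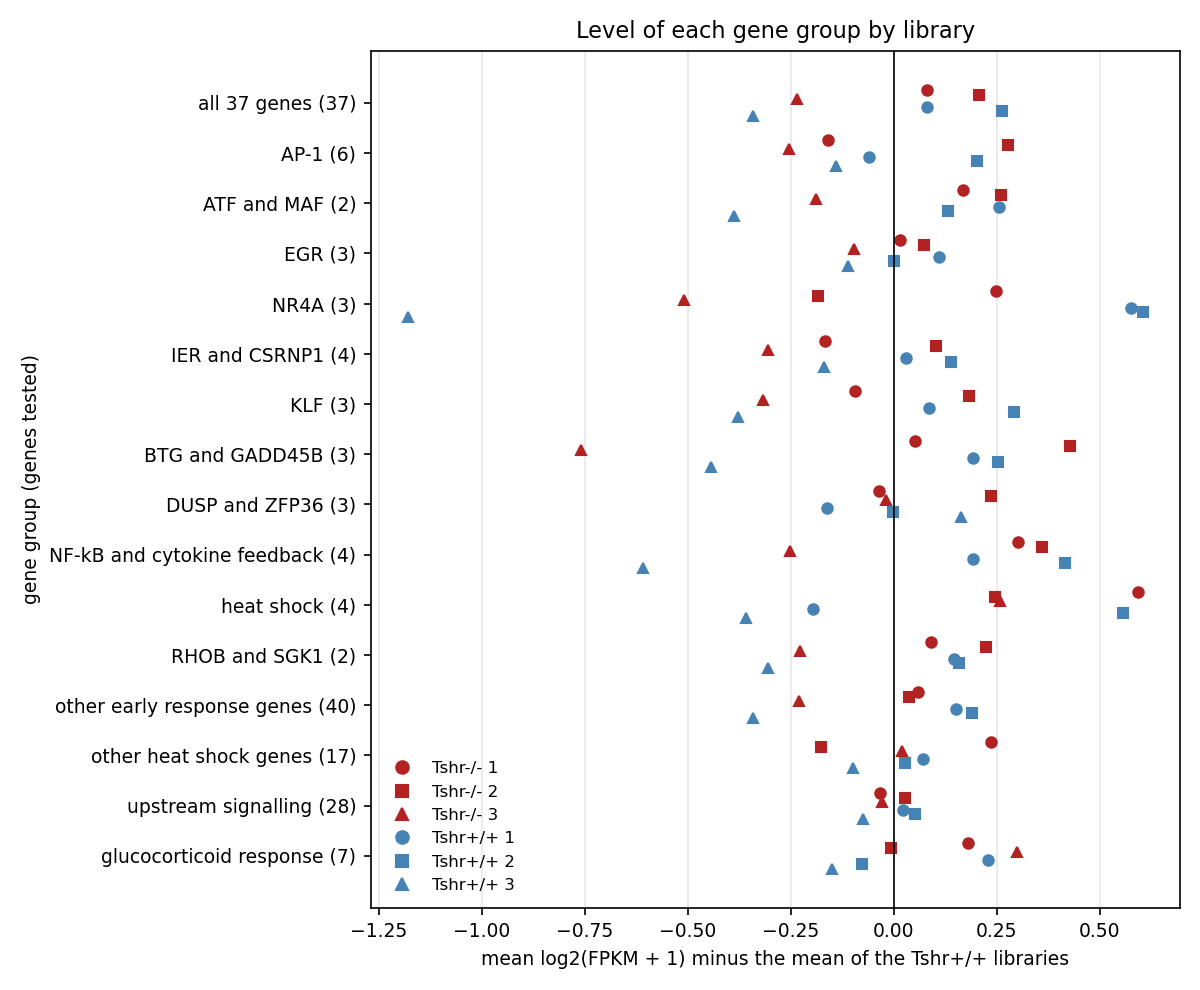
Each row is a gene group with its number of tested genes, and points give the mean log2(FPKM + 1) of the group in each library minus the mean of the Tshr+/+ libraries. Triangles, the libraries numbered 3, stand at -0.23 and -0.34 for all 37 genes, are the lowest points of the ATF and MAF, EGR, NR4A, IER, KLF, BTG, NF-kB and RHOB groups and do not stand apart for the upstream genes; with equal FPKM totals the level of all 37 genes in Tshr-/- 3 was 0.031.

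Among 6063 tested genes outside the 37 with a mean of at least 5 FPKM, 395 followed the profile of the 37 with a Pearson correlation of at least 0.9 over the 6 libraries. The 5 with the largest slope were the pseudogenes Rpl30-ps10 and Gm12191, the small GTPase gene Rhov, Ralgds, an exchange factor for Ral GTPases, and Osgin1, an oxidative stress gene. Rhov had 14.1, 13.6 and 2.07 FPKM in Tshr-/-, against 31.0, 35.8 and 2.60 FPKM in Tshr+/+. Ralgds had 7.54, 7.71 and 1.59 FPKM in Tshr-/-, against 9.97, 12.3 and 0.729 FPKM in Tshr+/+. Osgin1 had 45.4, 66.6 and 15.4 FPKM in Tshr-/-, against 77.8, 75.7 and 16.9 FPKM in Tshr+/+. All 3 were far lower in both libraries numbered 3 than in the other 4. The 2 pseudogenes may share fragments with their parent genes. The correlation over 6 libraries, chosen from 6063 genes, is a description only.

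Markers of some cell types also separated the libraries numbered 3 from the others, those of monocytes, resident macrophages and B cells by their mean level. Over all tested genes the shares were 19.7% with both of these libraries below the other 4 and 17.0% with both above. With equal FPKM totals those shares were 7.33% and 38.7%, and the marker values here are without that rescaling. Of 14 neutrophil markers 3 had both below, and the summed FPKM of the list was 95503 in Tshr-/- 3 and 118005 in Tshr+/+ 3, against 124472 to 146735 in the other 4 libraries. The mean log2 level of the list, measured as for the 37 genes, did not separate them, at -0.22 in Tshr-/- 3 and 0.02 in Tshr+/+ 3, against -0.06 to 0.25 in the others. Of 9 monocyte markers 5 had both above and 1, Nr4a1, below. Their mean level was 0.44 in Tshr-/- 3 and 0.29 in Tshr+/+ 3, against -0.33 to 0.08 in the others, while the summed FPKM (999.9 and 910.4, against 892 to 1049) overlapped. Of 10 resident macrophage markers 3 had both above, with mean levels of 0.24 and 0.13, against -0.43 to 0.09, while the summed FPKM (252 and 224, against 157 to 227) overlapped. The 2 tested B cell markers of 7 were above in both, with mean levels of 0.18 and 0.32, against -0.60 to -0.09, and at a summed 9.45 and 10.2 FPKM of the whole list, against 4.21 to 6.57 FPKM. T and NK cell (3 of 10 tested), erythroid (4 of 7), and mast cell, basophil and eosinophil markers (6 of 6) had 0 genes with both above or below, and of 3 tested dendritic markers 1 was below. No marker of these lists was at 0 in all libraries. Mitochondrial genes took 0.762% and 0.657% of fragments in Tshr-/- 3 and Tshr+/+ 3, against 0.592% to 0.636% in the others. The part of cell composition, RNA quality and the unknown meaning of the replicate number in the order of the 37 genes was not tested.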

How the data were processed

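The deposited table gives 1 column of FPKM per library. FPKM were computed by the authors; per the submitters' processing notes the builds are GRCm38 and mm10, and no source used here names the aligner, the counter, their versions or the use of strand. Columns headed WT and HO were matched to the titles by genotype and number, HO being read as homozygous Tshr-/-. Multiplied by gene length, the values of a library fell on a grid (100% within 0.01 of a whole number), which gave the fragments behind them; a scaling between libraries is already in the deposited FPKM.

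Genes that reached 1 FPKM in 3 or more libraries were compared on log2(FPKM + 1) with limma 3.58.1 in R 4.3.3 (two-sided, prior variance by mean level, Benjamini-Hochberg over 10913 genes, threshold 0.05). This scale understates the change of low genes. The fit was tried on simulated counts with a fixed dispersion and no shift shared by libraries. That trial does not measure how well the fit finds changes under the spread of these libraries. The 37 genes, the lists and the motifs were chosen with earlier results of these data known. Named were the 2 most abundant genes of each role group, the 5 with the smallest p, the 5 with the largest range and others of the 37 in short; of the other early response, heat shock, upstream and glucocorticoid lists, the most abundant and the 2 with the smallest p (1 gene is not reported here); and the 5 genes of steepest slope on the profile of the 37. The promoter of Ier2, which the rule also named, had no entry. Deviations of same-numbered libraries from their group means correlated at 0.243, 0.262 and 0.468 over all tested genes for the numbers 1, 2 and 3, where pairs of unlike number reached 0.344 (with number 1), 0.021 and -0.20; every value was above 0.1, so the replicate number was also fitted as a block. Alternatives were pseudocounts of 0.1 and 5, other filters and scalings, robust moderation, array weights, voom on fragments, protein-coding genes alone and libraries left out. No column was left unmapped.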

Additional observations from a re-analysis of the deposited data

How the results depend on the processing

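In all 20 alternatives of the genotype fit 0 of the 37 genes passed, with a smallest adjusted p of 0.0656, without both libraries numbered 3. Over all tested genes limma called 24 with array weights, 24 without both libraries numbered 3 and 0 to 2 with each library left out. With the replicate number as a block it called 0 genes and 0 of the 37, and 651 genes had an unadjusted p under 0.05; the block changed no call. The voom test on whole fragments called 0 of 13709 genes, with 373 at an unadjusted p under 0.05. The median log2 fold change of the 37 genes ranged from -0.20, without the libraries labelled Tshr-/- 1 and 2, to 0.08, with equal FPKM totals. Of 559 fold changes of 28 named genes under the alternatives, 498 kept their sign and 61 did not, and 0 were called. Of 92 library levels, 91 moved by less than the SD of their group, and that of Tshr-/- 3 was 0.031 with equal FPKM totals. The share of the other genes along the profile of the 37 was 25.3% without both libraries numbered 3, 63.8% without the libraries labelled Tshr-/- 1 and 2 (an average direction of 4 libraries takes 33.3%), and 45.3% along the first component of the 37, a direction added after seeing the data. Also added then was the count of genes with both libraries numbered 3 below the others. It was 9 with equal FPKM totals (all among the 19, against 7.33% of all tested genes) and 14 with quantile normalization (15.7%). With other libraries left out it was 19 to 21 (20.9% to 32.6%). On whole fragments it was the same 19 genes (18.3%), but that scaling was not by the fragment totals alone. Fosb, counted as below there, had 24252 of 17976477 fragments in Tshr-/- 3, a larger share than the 20143 of 16178808 in Tshr-/- 1. The count on whole fragments is thus no separate check of the scaling. The cause of the order was not tested. The 37 genes had 98 to 46991 fragments in a library, so the low genes carry more counting error.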
